A study of Mus musculus with 4 samples.

Results

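Progenitor-like cells with cTEC genes are thymic epithelial cells (TECs) that carried transcripts of TEC progenitors and transcripts of cortical TECs (cTECs) in the same cell. They were chosen from droplet-based single-cell RNA-seq of sorted thymic epithelium by 5 conditions on the counts of each cell. A cell had to show unique molecular identifiers (UMIs, one for each captured mRNA molecule) of at least 3 of the 6 progenitor genes Ackr4, Dcn, Serpinf1, Prelp, Gpm6b and Gas1. Prss16 and Psmb11 together had to give at least 10 of 10000 UMIs, Ccl21a under 50 of 10000 UMIs, Epcam at least 1 UMI, and the 5 T cell genes Trbc2, Cd3d, Cd3e, Cd3g and Lck together at most 2 UMIs. Of 28055 cells kept (200 genes or more, mitochondrial UMIs up to 25%), 376 met these conditions.

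The mice were C57BL/6 and 6 weeks old, and the sorted cells were EpCAM+ and negative for CD45 and TER119. Cd40-deficient and wild-type (WT) mice were injected at 4 weeks of age, 2 weeks before the cells were taken, with control IgG or with 5 mg/kg of an antibody that neutralizes RANKL. The design asks what remains of the adult thymic epithelium when RANK signaling, CD40 signaling or both are lost. The 4 groups were WT-Control (no loss), WT-RANKL Ab (RANKL blocked), Cd40-/- Control (Cd40 lost) and Cd40-/- RANKL Ab (both lost), and values given by library follow this order. The labels call the Cd40-deficient groups CD40KO. Each library pooled the cells of 3 mice, the labels limit the Cd40 deficiency to no cell type, and no control for the antibody other than IgG was part of these data. With 1 library per group there is no replicate, so no test between groups was run. The 95% intervals are exact and cover counting error only, not differences between mice or preparations. Those of levels and of their ratios treat each UMI as independent, so they also leave out differences between cells.

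The thymic cortex and medulla are built from separate lineages of epithelial cells. cTECs draw T cell precursors into the cortex with chemokines and cut the peptides on which thymocytes are positively selected, by means of the thymoproteasome subunit Psmb11 and the serine protease Prss16. Medullary TECs (mTECs) express tissue-restricted antigens, and their maturation depends on RANK and CD40, which signal to NF-kB. Both lineages descend from epithelial progenitors, and Foxn1 is the transcription factor on which the genes of cortical function depend. RANKL is the ligand of RANK.

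The promoters of 3 cTEC genes are shown, Psmb11 as a gene of the rule and Ccl25 and Tbata as genes that the rule did not use, because the core motif bound by Foxn1, GACGC, can be looked up in them. It was searched on both strands and reads GCGTC where it lies on the opposite one. Each window spans 250 bases before to 50 bases after a RefSeq transcript start, 300 bases in all, on the GRCm38.p6 build. Capitals mark the motif on either strand. Psmb11 is shown at chr14:54625060-54625359 on the plus strand, Ccl25 at the first of its starts at chr8:4324960-4325259 on the plus strand, and Tbata at chr10:61171714-61172013 on the plus strand.
Psmb11: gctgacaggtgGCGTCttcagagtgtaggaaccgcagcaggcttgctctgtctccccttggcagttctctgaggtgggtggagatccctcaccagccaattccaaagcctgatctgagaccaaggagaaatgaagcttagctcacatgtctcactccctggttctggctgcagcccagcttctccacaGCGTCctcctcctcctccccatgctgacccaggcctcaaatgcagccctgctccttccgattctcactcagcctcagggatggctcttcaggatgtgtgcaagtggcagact
Ccl25: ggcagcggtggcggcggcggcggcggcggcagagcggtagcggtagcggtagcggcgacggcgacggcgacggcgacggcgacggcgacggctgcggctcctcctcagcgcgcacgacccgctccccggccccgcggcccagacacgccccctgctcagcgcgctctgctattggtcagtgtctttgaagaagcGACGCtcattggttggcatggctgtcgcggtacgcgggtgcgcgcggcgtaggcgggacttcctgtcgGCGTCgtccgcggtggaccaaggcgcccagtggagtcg
Tbata: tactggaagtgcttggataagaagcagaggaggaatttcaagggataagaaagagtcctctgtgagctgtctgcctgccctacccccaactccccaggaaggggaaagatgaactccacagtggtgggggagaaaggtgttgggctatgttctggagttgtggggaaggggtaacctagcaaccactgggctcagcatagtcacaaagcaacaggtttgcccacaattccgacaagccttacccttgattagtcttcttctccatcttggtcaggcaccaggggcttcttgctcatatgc
The Psmb11 and Ccl25 windows each held 2 motifs, and the Tbata window held 0. The window at the second Ccl25 start, at chr8:4349338-4349637, held 0 as well. Of 13 genes, the 11 of the list of cTEC function used below plus Prss16 and Psmb11, 10 were matched to RefSeq starts. Their 11 promoters included 5 with a motif (45.5%), and 8932 of all 32851 promoters of this length held one (27.2%). A match of 5 letters is a description of the window and not a binding site, and its absence says nothing of the factor.

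The conditions of the rule were checked against the counts. Both Prss16 and Psmb11 were found in 355 of the 376 cells, Prss16 alone in 17 and Psmb11 alone in 4. Of the progenitor genes, Dcn was found in 353 cells, Ackr4 in 350, Serpinf1 in 262, Gas1 in 242, Prelp in 236 and Gpm6b in 216. The markers of the label were therefore present, as the rule required. The cells just inside the threshold had 10.1 UMIs of Prss16 and Psmb11 per 10000 and those just outside 9.99 and 9.92, with 33 cells between 10 and 12 and 51 cells with progenitor genes between 8 and 10. The highest Ccl21a level inside was 46.3 per 10000 and the lowest outside 54.1, which left out 48 cells, and 164 of the 376 cells had no UMI of Ccl21a. The cut on Prss16 and Psmb11 thus runs through a continuous range, whereas no cell that met the other conditions lay between 46.3 and 54.1 per 10000 of Ccl21a.

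Free RNA in droplets can give UMIs of genes that a cell does not express. Tuft-like cells of the thymic medulla, taken as cells with at least 3 of 8 tuft genes, should lack Prss16 and Psmb11, and 17 of 1402 of them (1.21%, interval 0.708 to 1.93) reached 10 per 10000 at a median depth of 6842 UMIs. At least 3 progenitor genes were found in 43 of them (3.07%, 2.23 to 4.11). Of the 1356 cells with progenitor genes and low Ccl21a, 27.7% (25.4 to 30.2) reached 10 per 10000, at median depths of 9298 UMIs in the cells chosen and 6532.5 in the rest. Prss16 gave 2022, 5351, 4170 and 4480 counts per 1000000 UMIs (CPM) in the progenitor-like cells with cTEC genes of the 4 libraries. In tuft-like cells Prss16 gave 23.4, 94.0, 91.4 and 273 CPM in the same order. The level in tuft-like cells was lowest in WT-Control and highest in Cd40-/- RANKL Ab. It was lower than in the cells of the rule in every library. The rule required Prss16 and Psmb11 in those cells, so this difference was set by the rule. It cannot show how much of their Prss16 came from free RNA.

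The libraries of the series held 2099 to 10590 barcodes and 19175068 to 95607338 UMIs, and the chosen cells 300726, 1284504, 1317689 and 1074539 UMIs in the order given above. Levels in WT-Control rest on 29 cells and are the least precise. The Cd40-/- libraries shared 210 barcodes, 10.0% of the smaller library, against 18 to 125 barcodes (0.858% to 1.44%) in the other pairs of libraries. The shared barcodes had a median of 724 UMIs in Cd40-/- Control, below the library median of 5841, but of 23858 in Cd40-/- RANKL Ab, above its median of 7504. None of them was chosen in Cd40-/- Control and 14 of the 81 cells were in Cd40-/- RANKL Ab, so some results for that library are also given without them. At least 1 UMI of the 5 T cell genes was found in 31.0%, 26.6%, 20.4% and 38.3% of the chosen cells, against 27.1% over all 376, 14.1% of the uncommitted cells and 22.7% of the cTEC-gated cells defined below.

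Markers of other cell types were low. The 13 thymocyte genes summed to 9.98, 21.0, 13.7 and 23.3 CPM in the 4 libraries with 11, 6, 5 and 3 of them at 0, and the 9 fibroblast genes to 3.33, 7.01, 11.4 and 30.7 CPM with 8, 6, 4 and 2 at 0. The 5 endothelial genes gave 0, 24.1, 1.52 and 0.931 CPM with 5, 0, 4 and 4 at 0. The 6 myeloid genes gave 6.65, 7.79, 44.0 and 5.58 CPM with 5, 2, 1 and 1 at 0. The 10 genes of mature mTECs gave 39.9, 82.5, 114 and 66.1 CPM with 6, 0, 1 and 5 at 0, and Aire, which drives tissue-restricted antigens, gave 0, 10, 45 and 0 UMIs. The 8 tuft genes gave 13.3, 77.9, 33.4 and 10.2 CPM with 6, 0, 0 and 5 at 0, and 3 of the 376 cells carried at least 3 of them. Fibroblast genes were highest in Cd40-/- RANKL Ab, where 14 cells had a barcode in common with the other Cd40-/- library. The part of these cells in the levels below was not tested beyond the values given without them.

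The share of progenitor-like cells with cTEC genes was lowest in WT-Control and highest in Cd40-/- RANKL Ab. They were 29 of 10218 kept cells in WT-Control (0.284%, 0.190 to 0.407), 124 of 7164 WT-RANKL Ab cells (1.73%, 1.44 to 2.06), 142 of 8591 Cd40-/- Control cells (1.65%, 1.39 to 1.95) and 81 of 2082 Cd40-/- RANKL Ab cells (3.89%, 3.10 to 4.81). The intervals of the single losses overlapped with each other, and neither overlapped with WT-Control or with the loss of both. Relative to WT-Control the share was 6.10-fold (4.04 to 9.48), 5.82-fold (3.88 to 9.01) and 13.7-fold (8.87 to 21.7) higher. In Cd40-/- RANKL Ab it was 2.35-fold (1.77 to 3.11) that of Cd40-/- Control and 2.25-fold (1.68 to 2.998) that of WT-RANKL Ab. Without the barcodes shared by the Cd40-/- libraries it was 67 of 1872 cells (3.58%) in Cd40-/- RANKL Ab and 142 of 8386 (1.69%) in Cd40-/- Control.

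A share of all cells also moves with the other cells in the library. Cells with the progenitor genes, whatever their cTEC genes and Ccl21a, made up 3.52%, 11.4%, 7.73% and 29.6% of kept cells in the 4 libraries. Among these cells, those with cTEC genes were 29 of 360 in WT-Control (8.06%, 5.46 to 11.4), 124 of 819 WT-RANKL Ab cells (15.1%, 12.8 to 17.8), 142 of 664 Cd40-/- Control cells (21.4%, 18.3 to 24.7) and 81 of 617 Cd40-/- RANKL Ab cells (13.1%, 10.6 to 16.1). Cd40-/- Control was highest on this scale, and Cd40-/- RANKL Ab was below it, with a log2 ratio of -0.70 (-1.12 to -0.30). Against WT-Control the log2 ratios were 0.91 (0.32 to 1.55), 1.41 (0.82 to 2.04) and 0.70 (0.08 to 1.37). Between these 2 denominators Cd40-/- Control and Cd40-/- RANKL Ab exchanged places, while WT-Control was lowest under both.

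Leaving out the Ccl21a-high cells, the share of progenitor-like cells that carried cTEC genes was 20% (13.8 to 27.4), 23.0% (19.6 to 26.8), 35.7% (31.0 to 40.6) and 29.5% (24.1 to 35.2). Among low-Ccl21a cells with cTEC genes, those that also carried progenitor genes were 29 of 103 (28.2%, 19.7 to 37.9), 124 of 339 (36.6%, 31.4 to 42.0), 142 of 419 (33.9%, 29.4 to 38.6) and 81 of 215 (37.7%, 31.2 to 44.5), and these 4 intervals overlapped. The neighbouring classes were also larger outside WT-Control. Uncommitted progenitor-like cells, with Prss16 and Psmb11 under 10 per 10000, were 5.09-fold, 2.62-fold and 8.21-fold their WT-Control share of kept cells. cTEC-gated cells, with fewer than 3 progenitor genes, were 4.14-fold, 4.45-fold and 8.89-fold. Progenitor-like cells with high Ccl21a, the chemokine of immature mTECs, were 1.86-fold, 1.47-fold and 7.81-fold.

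**Figure D1:**
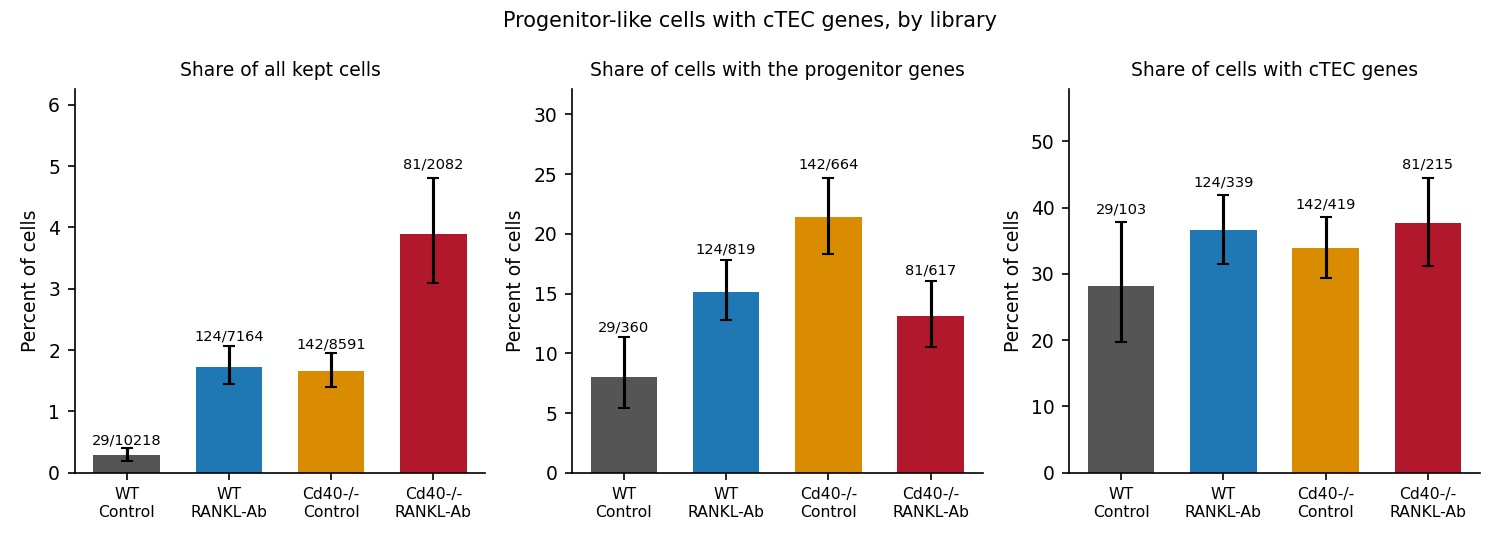
Percent of progenitor-like cells with cTEC genes in each of the 4 libraries, of all kept cells (left), of all cells with the progenitor genes (middle) and of the low-Ccl21a cells with cTEC genes, that is progenitor-like cells with cTEC genes plus cTEC-gated cells (right). Bars are shares with exact 95% intervals and the cell counts are printed above them; Cd40-/- RANKL Ab is highest on the left at 3.89%, Cd40-/- Control is highest in the middle at 21.4%, and on the right, where the shares are 28.2% to 37.7%, the intervals overlap.

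Within the rule, the cells spread over a wide range of cTEC transcripts. The median of Prss16 and Psmb11 together was 39.0 UMIs per 10000, with quartiles at 19.2 and 71.8 and a maximum of 245, against 93.8 in cTEC-gated cells and 1.86 in uncommitted cells. The 6 progenitor genes together had a median of 15.9 per 10000, against 39.1 in uncommitted cells and 0.459 in cTEC-gated cells. Both medians lay between the neighbouring classes, as the thresholds of the rule favour. As a description of how the cells chosen by these genes spread, the log2 levels of the 2 gene groups over the 376 cells had a Pearson correlation of -0.63 and a Spearman correlation of -0.64. Both groups were used by the rule, whose thresholds cut off their ranges, so these values support nothing beyond it. Within the libraries the Pearson correlation was -0.48 (29 cells), -0.64 (124), -0.57 (142) and -0.74 (81). The cells of a library share its depth and its free RNA, and both measures were also related to UMIs per cell (Pearson 0.33 for the cTEC genes and -0.48 for the progenitor genes).

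The WT-Control cells lay at the low end of this range. Their median of Prss16 and Psmb11 was 19.2 per 10000, against 42.8, 39.4 and 44.8 in the other libraries. Cells at 40 per 10000 or more made up 4 of 29 (13.8%) in WT-Control and 51.6%, 49.3% and 56.8% in the other libraries. The summed progenitor genes had medians of 20.4, 18.8, 14.3 and 12.2 per 10000, highest in WT-Control and lowest in Cd40-/- RANKL Ab.

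**Figure D2:**
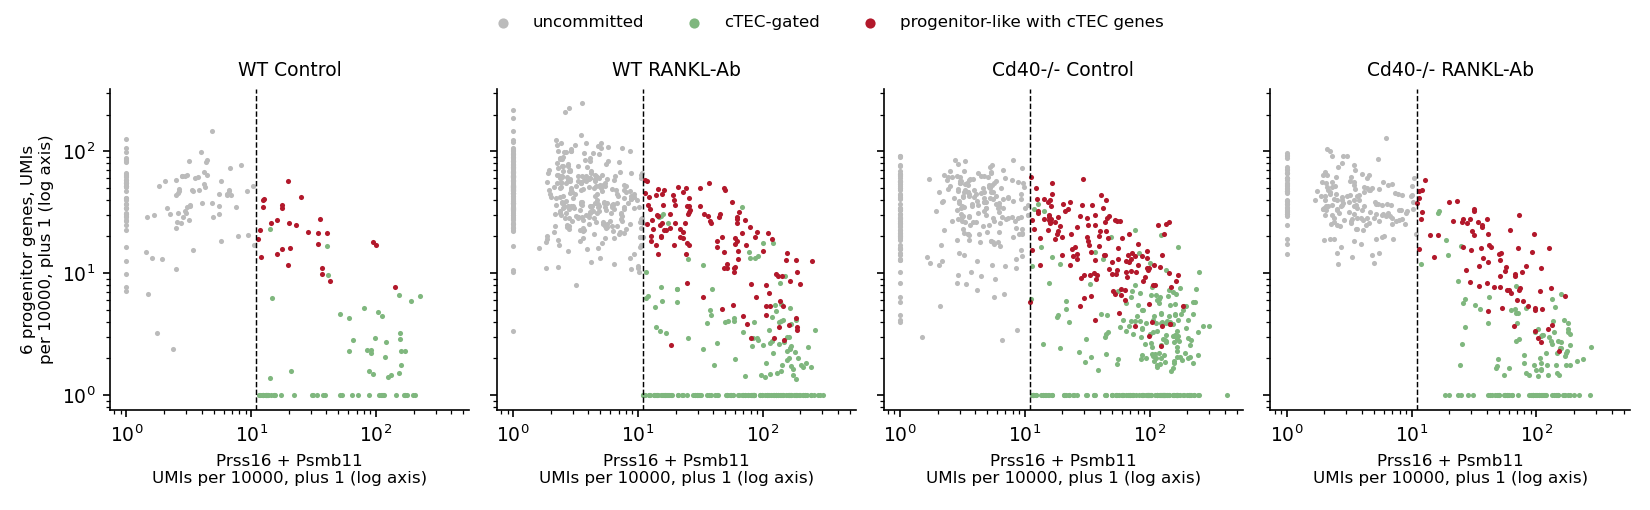
Each point is 1 cell, with the UMIs per 10000 of Prss16 and Psmb11 on the x axis and of the 6 progenitor genes on the y axis, both plus 1 and on log axes, 1 panel per library. The dashed line marks the threshold of 10 per 10000; progenitor-like cells with cTEC genes (red) run from the uncommitted cells (grey) downward to the cTEC-gated cells (green), and only 4 of the 29 in WT-Control lie at 40 or more.

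The cells were split at 20, 40 and 80 UMIs of Prss16 and Psmb11 per 10000 into 4 steps of 97, 95, 104 and 80 cells. WT-Control gave 16, 9, 1 and 3 of its cells to them, WT-RANKL Ab 34, 26, 34 and 30, Cd40-/- Control 35, 37, 41 and 29, and Cd40-/- RANKL Ab 12, 23, 28 and 18. The steps also differed in depth, with medians of 7145, 8698, 9515 and 12665 UMIs per cell. Prss16 and Psmb11 define the steps and are not listed as a result. Levels below are CPM over the cells of a step, with all libraries pooled.

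Taken as a sum, the other genes of cTEC function, which the rule did not use, were higher at each step. The summed level of 11 such genes was 9880, 16734, 28907 and 50328 CPM. Ccl25, a chemokine for T cell precursors, gave 694, 1833, 4363 and 8851 CPM. Tbata, a gene of thymic epithelium, gave 981, 3523, 8770 and 16084 CPM. Both were at their lowest in the uncommitted cells, with 164 and 297 CPM, and at their highest in the cTEC-gated cells, with 9971 and 16979 CPM. Ctsl, the cathepsin that cuts peptides for MHC class II in the cortex, gave 5905, 8384, 12024 and 20425 CPM. Dll4, the Notch ligand that commits precursors to the T lineage, gave 16.5, 35.2, 55.0 and 101 CPM, and Cd83, which stabilizes MHC class II, gave 56.7, 86.8, 256 and 561 CPM. Ly75, the endocytic receptor CD205, gave 213, 300, 442 and 792 CPM. Enpep, the gene of the cTEC surface marker Ly51, gave 46.1, 57.2, 80.3 and 131 CPM. The secreted factor Cxcl12 spanned less, with 1559, 2057, 2362 and 2846 CPM. Foxn1 itself gave 89.8, 106, 160 and 143 CPM, so the master factor was already well above the 39.1 CPM (34.7 to 43.8) of uncommitted cells in the first step.

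Keratins of the cortex were higher and basal keratin was lower along the same steps. Krt8 gave 1904, 2737, 3603 and 4982 CPM and its partner Krt18 gave 2786, 4437, 6203 and 7475 CPM. Krt14, a keratin of basal epithelium, gave 633, 247, 216 and 84.4 CPM. Genes that the study picked on these samples as markers of its progenitor subcluster S0 were lower at each step, with a sum of 5128, 2883, 2193 and 1165 CPM over 21 genes. Among them Apoe, a lipid carrier, gave 3579, 2085, 1546 and 912 CPM and Igfbp4, a binding protein of insulin-like growth factors, 215, 96.7, 93.8 and 21.6 CPM. The 24 genes picked in the same way for subcluster S1 summed to 15410, 22321, 27938 and 38540 CPM. Those lists were chosen from these cells and are not independent of the steps. The matrix gene Mgp, on no list, gave 1347, 973, 545 and 189 CPM.

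Immediate early genes were lower in the cells with more Prss16 and Psmb11. The AP-1 family, transcription factors induced within minutes by growth factors and stress, summed to 3559, 2803, 2152 and 1047 CPM, and 15 other immediate early genes to 3060, 2349, 1685 and 904 CPM. Fos gave 735, 618, 354 and 132 CPM. Jun gave 943, 702, 568 and 248 CPM, and Junb 891, 741, 519 and 251 CPM. Egr1 gave 362, 320, 207 and 71.8 CPM and Atf3 191, 126, 111 and 21.6 CPM. Each of these 5 genes was at its lowest in the last step, where the interval lay below those of the other steps. Taken within libraries, the AP-1 sum below and at or above 40 per 10000 was 2499 and 2147 CPM in WT-Control (log2 ratio -0.22, -0.54 to 0.09, with 4 cells in the upper part), 2092 and 1157 CPM after RANKL Ab alone (-0.85, -0.98 to -0.73), 3391 and 1830 CPM in Cd40-/- Control (-0.89, -0.99 to -0.79) and 4649 and 1821 CPM with both losses (-1.35, -1.46 to -1.25). The direction was thus the same in all 4 libraries, and the interval of WT-Control included 0.

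Other groups differed little along the steps. MHC class II genes, by which the cells present peptides, summed to 30548, 30549, 27637 and 28553 CPM, and Cd74, the invariant chain, gave 13868, 13885, 12385 and 13413 CPM. Factors of TEC identity summed to 1484, 1452, 1484 and 1532 CPM, although within this list Pax1 was higher at each step (390, 425, 522 and 665 CPM) and Trp63, a factor of epithelial stem cells, lower (292, 263, 221 and 167 CPM). Heat shock genes gave 3972, 4621, 4556 and 4597 CPM. Within libraries, the log2 ratio of MHC class II genes between the parts at 40 or more and under 40 was 0.13, -0.21, -0.06 and -0.12, and that of the genes of cTEC function 1.60, 1.79, 1.44 and 1.46.

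**Figure D3:**
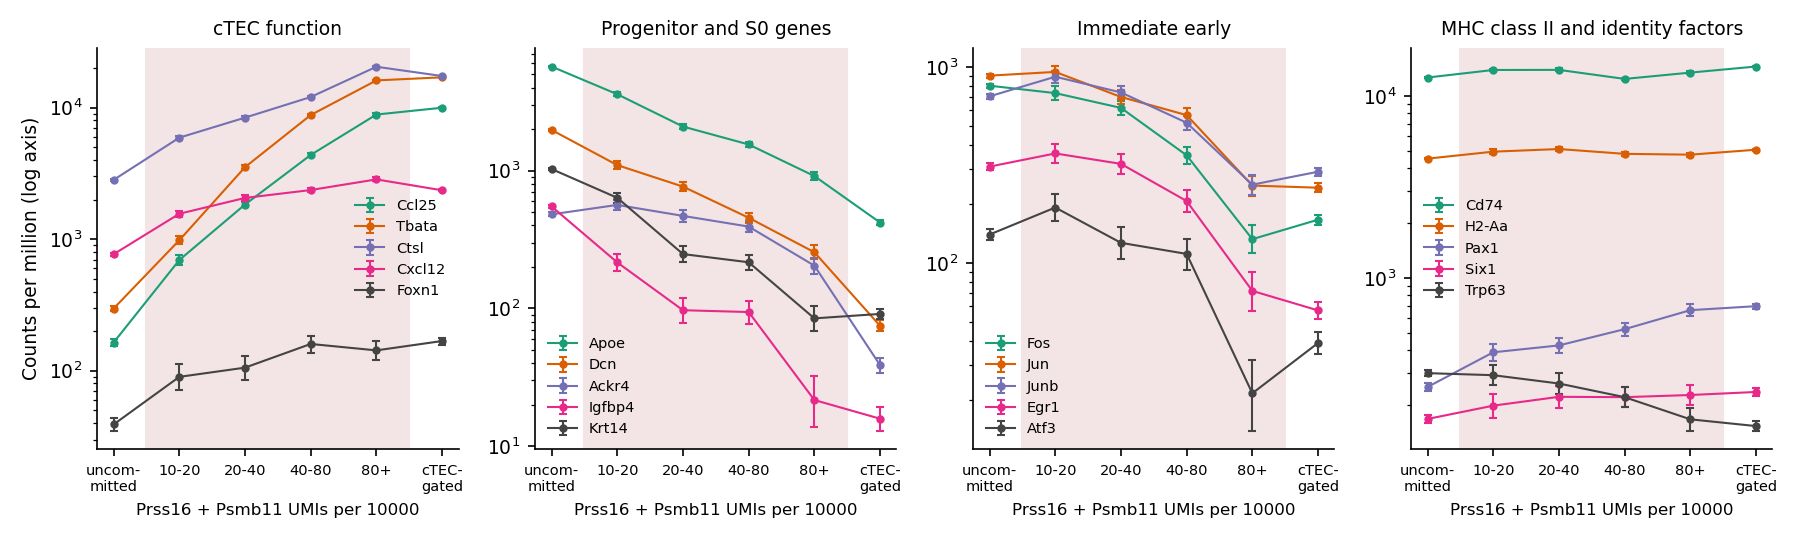
Counts per 1000000 UMIs (CPM, log axis, points with exact 95% intervals) in uncommitted cells, in 4 steps of progenitor-like cells with cTEC genes (shaded, UMIs of Prss16 and Psmb11 per 10000) and in cTEC-gated cells, with all libraries pooled. Genes of cTEC function such as Ccl25 (694 to 8851 CPM) are higher at each step, Apoe (3579 to 912 CPM) and Fos (735 to 132 CPM) are lower, and Cd74 (13868 to 13413 CPM) is nearly level.

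Against the neighbouring classes, the comparison was taken within each library and no test was made, because the classes were cut by gene levels. Against uncommitted cells, 165 of 10721 genes (1.54%) were higher by 1 or more on the log2 scale in all 4 libraries and 154 (1.44%) lower. Of 11 genes of cTEC function, 8 were higher in this way and 0 lower, with a median log2 ratio of 2.07 where the median over all genes was 0.00. Of the S1 genes, 13 of 24 were higher, and of the S0 genes, 14 of 21 were lower. Against cTEC-gated cells, 203 of 10128 genes (2%) were higher and 125 (1.23%) lower. None of the 11 genes of cTEC function passed in either direction there, and their median was -0.62 beside 0.08 over all genes. Of the S0 genes tested, 10 of 18 were higher.

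The 10 genes furthest above uncommitted cells held 5 that belong to the rule or to the list of cTEC function, Prss16, Psmb11, Ccl25, Tbata and Cd83. The others were Isg20, an exonuclease (816 CPM against 71.3 in uncommitted cells), Cstb, an inhibitor of cathepsins (5521 against 905), the transporter gene Slc22a7 (143 against 7.31), Crip3 (1126 against 72.4) and Pithd1 (341 against 38.4). All of these genes were higher still in cTEC-gated cells, with 1751 CPM of Isg20, 11574 of Cstb, 439 of Slc22a7, 2206 of Crip3 and 791 of Pithd1. The 10 furthest below uncommitted cells included Krt19, a keratin of simple epithelium (21.1 CPM against 156), Pcp4, a calmodulin regulator (1.76 against 47.6), Gsn, the actin-severing protein gelsolin (93.3 against 595), and Igfbp4 (100 against 548). Pcp4 was listed at 0, 3.11, 2.28 and 0 CPM in the 4 libraries. A count of 0 in WT-Control or Cd40-/- RANKL Ab does not show its absence at this depth.

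The 10 genes furthest above cTEC-gated cells included the 6 progenitor genes of the rule together with Id3, an inhibitor of basic helix-loop-helix factors (405 CPM against 59.9), Mgp (714 against 77.7), the myosin light chain Myl9 (232 against 27.5) and Rnase4 (291 against 49.4). Among the 10 furthest below were Ubd, a ubiquitin-like modifier (263 against 1492), the homeobox gene Nkx6-2 (31.7 against 185) and the receptor gene Prokr2 (27.7 against 138). Ubd gave 110, 338, 291 and 183 CPM in the 4 libraries, and Nkx6-2 3.33, 37.4, 34.2 and 29.8 CPM. Both were lowest in WT-Control, where the Nkx6-2 level rests on very few UMIs. The part of the range of Prss16 and Psmb11 in these levels was not tested. In uncommitted cells Ubd gave 381 CPM and Nkx6-2 11.4 CPM.

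A part of the genes was not between the neighbouring classes. Here a difference of any size counted, without the cut at 1 on the log2 scale used above. In all 4 libraries, 412 of 11578 genes (3.56%, and 671 without WT-Control, when 3 libraries were required) were above both classes, 174 (1.5%) below both and 1342 (11.6%) between them. Of 24 S1 genes, 8 were above both and 8 between. The 8 were Dact2, an antagonist of Wnt and Nodal signaling; Pltp, a phospholipid transfer protein; the potassium channel gene Kcnk2; Igfbp7; Nqo1, a quinone reductase; P4ha3, a collagen prolyl hydroxylase; the repressor Hes6; and Psat1, an enzyme of serine synthesis. The study selected S1 on these samples, so that their place above uncommitted cells is not independent evidence.

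Igfbp7, a secreted protein that binds insulin-like growth factors, gave 658, 698, 537 and 486 CPM in the 4 libraries, against 387, 525, 344 and 368 in uncommitted cells and 168, 219, 210 and 120 in cTEC-gated cells. The lowest library of the cells thus lay below the highest of the uncommitted cells, but within each library the cells were higher, by 0.77, 0.41, 0.64 and 0.40 on the log2 scale. Dact2 (chr17:14195052-14204304) gave 442, 315, 182 and 332 CPM, against 102, 108, 51.5 and 154 in uncommitted and 196, 198, 151 and 251 in cTEC-gated cells. Pltp (chr2:164839518-164857711) gave 1699, 1531, 1387 and 1737 CPM, against 641, 873, 646 and 773 in uncommitted and 830, 1018, 1073 and 1039 in cTEC-gated cells. The Pltp levels of the cells did not overlap with those of either class. Hes6 gave 303, 291, 294 and 418 CPM, against 113, 72.0, 135 and 86.7 in uncommitted and 244, 213, 187 and 195 in cTEC-gated cells, again without overlap. Along the steps Hes6 was highest in the middle, with 221, 440, 439 and 206 CPM. The margins over cTEC-gated cells were small for Kcnk2 and Psat1, whose log2 ratio in Cd40-/- Control was 0.08 for each.

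**Figure D4:**
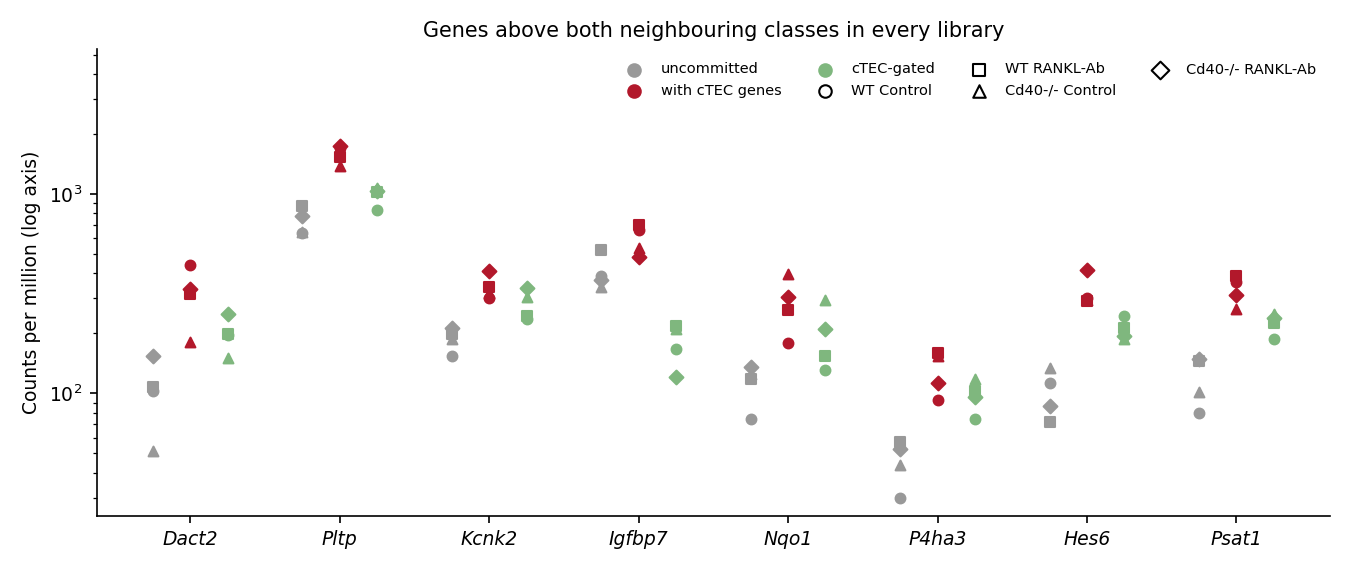
Counts per 1000000 UMIs (CPM, log axis) of 8 genes in uncommitted cells (grey), progenitor-like cells with cTEC genes (red) and cTEC-gated cells (green), with 1 symbol per library. In each library the red symbol is above the grey and the green one for all 8 genes, and for Pltp and Hes6 no red symbol overlaps with the other colours.

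Against progenitor-like cells with high Ccl21a, 332 of 11191 genes (2.97%) were higher by 1 or more in all 4 libraries and 478 (4.27%) lower. Of the genes of cTEC function 9 of 11 were higher and 0 lower, with a median log2 ratio of 2.98. Of 8 keratins, 4 were lower and 2 higher. Krt5, the keratin of the basal layer and of most mTECs, gave 200, 204, 127 and 262 CPM, against 1209, 1388, 1082 and 1398 CPM in the Ccl21a-high cells, and the levels did not overlap. Pdpn, which encodes the surface protein podoplanin, gave 36.6, 65.4, 57.7 and 62.4 CPM against 101, 101, 113 and 204 CPM, again without overlap. Foxn1 gave 41.3, 49.9, 32.3 and 48.1 CPM in the Ccl21a-high cells.

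Outside S1, the only list genes above both the uncommitted and the cTEC-gated cells by any size in every library were H2-Ab1, Hsp90aa1 and Bmpr2. They belong to the MHC class II, heat shock and BMP lists, 1 each. H2-Ab1, the beta chain of an MHC class II molecule, gave 6981 CPM (6899 to 7064) over all libraries, against 6160 in uncommitted and 6356 in cTEC-gated cells. For further lists only the medians are given. Interferon-stimulated genes had a median log2 ratio of -0.04 against uncommitted and 0.39 against cTEC-gated cells, MHC class II genes 0.10 and 0.02, heat shock genes 0.01 and 0.03, and keratins -0.21 and -0.11. The AP-1 family had medians of -0.33 against uncommitted and 1.25 against cTEC-gated cells. Against cTEC-gated cells, 1 of 8 AP-1 genes tested was higher by 1 or more in all 4 libraries, beside 2% of all genes.

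Mitotic transcripts were rare. After thinning each cell to 2000 UMIs, 4 of 369 cells (1.08%, 0.296 to 2.75) carried at least 3 mitotic genes, 7 shallower cells being left out. The share was 25 of 968 (2.58%, 1.68 to 3.79) in uncommitted and 11 of 581 (1.89%, 0.949 to 3.36) in cTEC-gated cells, and the intervals overlapped. By library there were 1 of 28, 2 of 121, 1 of 139 and 0 of 81 such cells. With all UMIs the share was 4.26%, 4.80% and 4.43% in the 3 classes.

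Levels within the cells were then compared between libraries. Genes with 20 UMIs or more over the pair of libraries were used, with 1 CPM added. Relative to WT-Control, 833 of 7661 genes (10.9%) were higher by 1 or more on the log2 scale in WT-RANKL Ab and 224 (2.92%) lower. In Cd40-/- Control 1292 of 7969 (16.2%) were higher and 260 (3.26%) lower, and in Cd40-/- RANKL Ab 750 of 7225 (10.4%) higher and 200 (2.77%) lower. With at least 100 UMIs the counts in Cd40-/- RANKL Ab were 85 higher and 36 lower. The median log2 ratio over all genes was 0.15, 0.24 and 0.12. All 3 comparisons share the WT-Control library.

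Interferon-stimulated genes, a group induced by interferons, were lower outside WT-Control, and lowest in Cd40-/- RANKL Ab. Of those tested, 11 of 30 were lower by 1 or more after RANKL Ab alone and 0 higher, 8 of 32 lower and 1 higher in Cd40-/- Control, and 16 of 30 lower and 0 higher in Cd40-/- RANKL Ab. These counts stand beside 2.92%, 3.26% and 2.77% of all genes lower. The median log2 ratio was -0.91, -0.24 and -1.40, and among cells under 40 per 10000, described below, it was -0.71, -0.0021 and -1.14. In Cd40-/- RANKL Ab the interval of 22 of the 30 genes lay below 0 and that of 1 above. The share of all genes with such intervals is not given, so these 2 counts have no background beside them. The summed level of the list was 7096, 4244, 5480 and 3672 CPM. Against Cd40-/- Control the median of Cd40-/- RANKL Ab was -0.80, with 12 of 32 genes lower by 1 or more beside 4.15% of all 9011 genes, and 1.63% of them higher.

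Ifi27l2a, a mitochondrial interferon-inducible gene, gave 4582, 767, 902 and 190 CPM, with a log2 ratio of -4.59 (-4.81 to -4.38) in Cd40-/- RANKL Ab. It was found in 28 of 29 cells of WT-Control (96.6%) and in 79.0%, 83.8% and 64.2% of the cells of the other libraries. Its level in WT-Control stood apart from the single losses, which in turn stood apart from the loss of both. Isg15, a ubiquitin-like modifier, gave 1031, 186, 374 and 160 CPM. Bst2, the antiviral protein tetherin, gave 625, 265, 254 and 165 CPM, and Irf7, the factor that amplifies interferon responses, 120, 36.6, 44.0 and 7.45 CPM from 36, 47, 58 and 8 UMIs. Xaf1 gave 253, 59.2, 83.5 and 42.8 CPM, and Zbp1, a sensor of nucleic acids, 153, 47.5, 53.1 and 31.6 CPM. Rtp4 gave 253, 133, 143 and 41.9 CPM and Ifit3 180, 45.9, 103 and 31.6 CPM. In each of these genes WT-Control was highest and Cd40-/- RANKL Ab lowest, although the intervals of both RANKL-Ab libraries overlapped for Isg15, Xaf1, Zbp1 and Ifit3.

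Cxcl10, a chemokine of the same list, did not follow this order. It gave 209, 106, 394 and 351 CPM, with a log2 ratio of 0.74 (0.36 to 1.15) in Cd40-/- RANKL Ab, and 77.8% of its UMIs in WT-Control came from 1 cell. Ly6a, the gene of the surface protein Sca-1 and also an S0 gene, gave 1011, 186, 222 and 39.1 CPM and was found in 75.9%, 41.1%, 36.6% and 19.8% of cells. Its pattern was like that of Ifi27l2a, with a log2 ratio of -4.66 (-5.19 to -4.22).

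WT-Control held mostly cells low on the range, so the comparison was repeated there. Among cells under 40 per 10000, 15 of 27 genes of the list were lower by 1 or more in Cd40-/- RANKL Ab than in WT-Control, beside 2.91% of all 4610 genes. In the same comparison Ifi27l2a was at -3.86, Ly6a at -3.74 and Isg15 at -2.09. Without the shared barcodes the median was -1.12 and Ifi27l2a at -4.20. Neighbouring classes showed the same order, with summed levels of 6501, 4353, 5003 and 2706 CPM in uncommitted and 4893, 4162, 4394 and 3373 CPM in cTEC-gated cells. Ifi27l2a also gave 1548, 900, 892 and 87.1 CPM in tuft-like cells. There too WT-Control was highest and Cd40-/- RANKL Ab lowest, and the part of free RNA was not tested.

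**Figure D5:**
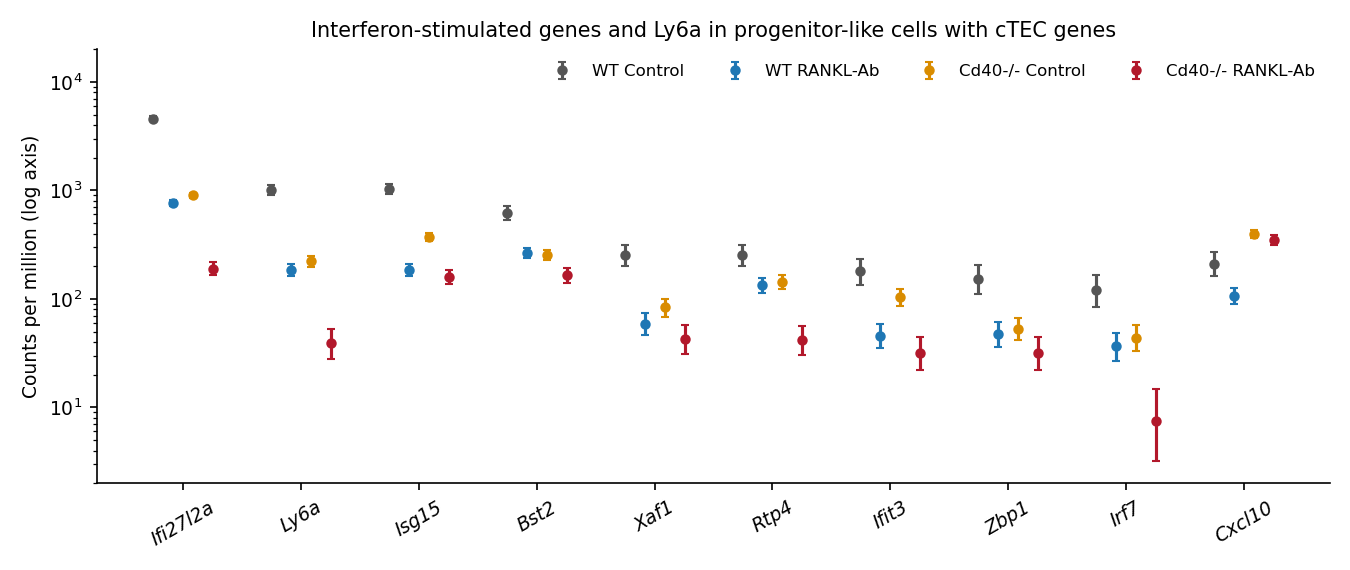
Counts per 1000000 UMIs (CPM, log axis, points with exact 95% intervals) of 9 interferon-stimulated genes and Ly6a in progenitor-like cells with cTEC genes of the 4 libraries. From Ifi27l2a (4582 to 190 CPM) to Irf7 (120 to 7.45 CPM) WT-Control is highest and Cd40-/- RANKL Ab lowest, whereas Cxcl10 is highest in Cd40-/- Control.

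Genes of cTEC function were higher than in WT-Control in each of the other libraries. Their summed level was 18499, 28888, 26028 and 32285 CPM, with median log2 ratios of 0.70, 0.63 and 0.88. By 1 or more, 1, 1 and 3 of 11 genes were higher and 0 lower, beside 10.9%, 16.2% and 10.4% of all genes higher, so that the members past this size were few and the shift was in the median. Tbata gave 4539, 8061, 7241 and 9681 CPM (1.09, 1.01 to 1.18, in Cd40-/- RANKL Ab), and Ccl25 2674, 4096, 4178 and 5002 CPM (0.90, 0.80 to 1.01). Dll4 gave 33.3, 54.5, 44.8 and 75.4 CPM and Enpep 39.9, 94.98, 78.9 and 81.9 CPM. Foxn1 (chr11:78357577-78386558) gave 79.8, 149, 120 and 125 CPM, and Ctsl 8922, 13156, 10801 and 13845 CPM. Each of these genes was lowest in WT-Control, and the order of the other libraries differed from gene to gene.

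These differences were smaller among cells under 40 per 10000, where most WT-Control cells lay. Within that part the median log2 ratio of the list in Cd40-/- RANKL Ab was 0.20, Tbata was at -0.15, Ccl25 at -0.16 and Dll4 at -0.33, while Enpep was at 0.87 and Foxn1 at 0.45. Between Cd40-/- RANKL Ab and Cd40-/- Control, whose medians on the range were 44.8 and 39.4 per 10000, the median was 0.10, and -0.0094 without the shared barcodes. Against WT-Control it was 0.60 without them. Of the genes that define the rule, Prss16 had a log2 ratio of 1.15 and Psmb11 of 0.29 in Cd40-/- RANKL Ab, which is given as a description. Without the shared barcodes these ratios were 0.93 and 0.05.

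The AP-1 family had no common direction. Its summed level was 2444, 1526, 2545 and 2851 CPM, and the median log2 ratio to WT-Control was -0.91, 0.08 (-0.0604 with TMM factors) and 0.26. By 1 or more, 2 of 6 genes were lower in WT-RANKL Ab beside 2.92% of all genes, 1 of 6 higher in Cd40-/- Control, near the 16.2% of all genes, and 0 of 7 in either direction in Cd40-/- RANKL Ab. Jun gave 658, 337, 611 and 843 CPM and Junb 688, 325, 585 and 825 CPM, both lowest in WT-RANKL Ab and highest in Cd40-/- RANKL Ab. Fos gave 442, 277, 552 and 471 CPM. In Cd40-/- RANKL Ab the log2 ratio was 0.36 (0.13 to 0.59) for Jun and 0.26 (0.04 to 0.49) for Junb, and both turned to -0.06 and -0.29 when Prss16 and Psmb11 had to reach 20 per 10000. In Cd40-/- RANKL Ab the list median was 0.92 under 40 per 10000, and 0.35 without the shared barcodes. In WT-RANKL Ab it was -0.31 under 40 per 10000, with 1 of 6 genes lower by 1 or more beside 2.52% of all genes. At 20 per 10000 or more it was -1.53 there, with 5 of 6 lower beside 4.08% of all genes. Between the RANKL-Ab libraries 4 of 7 AP-1 genes were higher by 1 or more in the Cd40-deficient one, with a median of 1.32, beside 2.55% of all 8821 genes. In uncommitted cells the AP-1 sum was 1981, 3006, 3503 and 4768 CPM, and in cTEC-gated cells 1144, 1243, 1056 and 1648 CPM.

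Other immediate early genes summed to 1603, 1237, 2317 and 2304 CPM. Egr1 gave 126, 89.5, 370 and 248 CPM, higher in both Cd40-/- libraries, with log2 ratios of 1.54 (1.07 to 2.06) and 0.96 (0.48 to 1.501). By 1 or more, 5 of 14 genes of the list were higher in Cd40-/- Control and 2 of 14 in Cd40-/- RANKL Ab, beside 16.2% and 10.4% of all genes, so that the latter count is near the background. In WT-RANKL Ab 3 of 12 were lower, beside 2.92%, and among cells under 40 per 10000 0 of 12, beside 2.52%. Heat shock genes, which respond to handling as well, had medians of 0.08, 0.34 and 0.41 and summed to 3854, 4183, 4415 and 5010 CPM. The time from dissection to capture is not given in the sources used here, and its part was not tested.

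Transcripts of the receptors were sparse in these cells. Cd40 (chr2:165055627-165072948) gave 8, 22, 4 and 7 UMIs, or 26.6, 17.1, 3.04 and 6.51 CPM. It was lower in the Cd40-deficient libraries, with log2 ratios of -2.77 (-5.31 to -1.23) and -1.88 (-3.73 to -0.37), but UMIs of the locus remained, so that the count alone does not show the deletion. Tnfrsf11a, which encodes RANK, gave 0, 9, 6 and 2 UMIs. With 0 UMIs in WT-Control the upper bound is 12.3 CPM, and no difference was detectable at this depth. Of their shared targets, Nfkbia, an inhibitor of NF-kB, gave 362, 366, 729 and 491 CPM with log2 ratios of 0.01, 1.01 (0.72 to 1.31) and 0.44 (0.14 to 0.75), and Nfkbiz 9.98, 6.23, 47.1 and 69.8 CPM from 3, 8, 62 and 75 UMIs. Both were higher in the Cd40-/- libraries than in the WT libraries. Relb, a subunit of NF-kB, gave 76.5, 77.1, 78.2 and 68.9 CPM. The list of RANK, CD40 and NF-kB genes had medians of 0.04, 0.85 and 0.40.

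Of the S0 genes, 5 of 16, 6 of 15 and 5 of 15 were lower than in WT-Control by 1 or more and 0 higher, beside 2.92%, 3.26% and 2.77% of all genes lower, with medians of -0.49, -0.80 and -0.93. Among cells under 40 per 10000 the medians were 0.20, -0.59 and -0.0928, with 2 of 11, 4 of 13 and 2 of 13 genes lower, so that the direction turned in WT-RANKL Ab. Apoe gave 2770, 2542, 1658 and 1275 CPM. The S1 genes had medians of 0.34, 0.21 and 0.32, and of -0.0253, -0.0652 and 0.12 under 40 per 10000. Krt14 gave 406, 414, 173 and 197 CPM, lower in both Cd40-/- libraries, and Krt8 2946, 3488, 3033 and 3983 CPM. MHC class I genes summed to 11343, 9357, 7720 and 7028 CPM, with 0 of 6 past 1 in any of these comparisons and medians of 0.13, -0.31 and -0.31. Among them B2m, the light chain, had a log2 ratio of -0.95 in Cd40-/- RANKL Ab and of -1.55 under 40 per 10000. MHC class II genes summed to 30287, 31577, 28694 and 26596 CPM, with medians of 0.02, -0.09 and -0.24. Factors of TEC identity had medians of 0.28, 0.43 and 0.23.

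The 10 genes with the largest positive difference between Cd40-/- RANKL Ab and WT-Control included Nfkbiz, with a log2 ratio of 2.69 (1.20 to 5.12), Acta2, the smooth muscle actin, with 33.3, 128, 86.5 and 204 CPM and a log2 ratio of 2.58 (1.71 to 3.70), Foxo3, a forkhead factor, with 9.98, 56.1, 40.2 and 64.2 CPM, Casz1, a zinc finger factor, with 13.3, 63.1, 49.3 and 74.5 CPM, and Pds5b, a regulator of cohesin, with 99.8, 167, 411 and 403 CPM. Acta2 was highest in the library where fibroblast genes were highest as well. Fxyd2, a regulator of the sodium pump, gave 309, 1355, 839 and 1230 CPM with a log2 ratio of 1.99 (1.69 to 2.31), and turned to -0.36 under 40 per 10000. Without the shared barcodes its ratio was 1.43, below that interval. The other 4 were Actl6a, Alkbh5, Bmp2k and Samd14, which rested on 2, 6, 3 and 2 UMIs in WT-Control. The 10 with the largest negative difference were Ifi27l2a, Ly6a, Isg15, Ifit3, Rtp4, Xaf1, Zbp1, H2-Q4, Stmn1 and Sprr1a. In WT-Control 1 cell held 47.4% of the Stmn1 UMIs and 88.9% of the Sprr1a UMIs, so these 2 values describe single cells. H2-Q4, an MHC class I gene with close paralogs among which reads may be split, gave 279, 40.5, 40.2 and 61.4 CPM.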

How the data were processed

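Sorted TECs of 4 groups were profiled by droplet-based scRNA-seq, with 1 library of 3 pooled mice per group. The authors trimmed reads with Fastp, aligned them to mm10 and counted UMIs with Cell Ranger (5.0.1 in the file headers, 5.1 in the submitters' processing notes), and the deposited values are raw UMI counts of called barcodes. The labels and the methods name different versions of the library kit, v2 and v3.1. Barcodes under 200 genes or over 25% mitochondrial UMIs were left out. No doublet caller was run. Members of each class were found by the gates given in the report, and UMIs were summed per class and library and scaled to 1000000 (CPM). Shares carry Clopper-Pearson intervals, CPM Poisson intervals and ratios conditional binomial ones. They were checked only on counts simulated under the same models. That check cannot show that they hold for UMIs clustered within cells. With 1 library per group and classes cut by genes, no test was run, and lists are described by counts past 1 on the log2 scale and medians, beside all genes. The members and the gene lists were chosen with earlier results of these data known. Named genes were those of the rule, the 4 highest of each list and list members past 1, the 10 largest differences in each direction between Cd40-/- RANKL Ab and WT-Control (10 CPM added, at least 50 UMIs), and the 10 furthest above and below each neighbouring class in every library. A selection of these is shown, and the 8 S1 genes above both classes were chosen after their values were seen. Alternatives covered the thresholds, depth limits, thinning to 2000 UMIs, denominators, TMM factors, the CPM added, the UMI minimum and the shared barcodes. Coordinates of genes are GENCODE vM21 on GRCm38, for 323 of 330 named genes, and promoters are from RefSeq. Tools were edgeR 4.0.16 (TMM factors) under R 4.3.3, and scipy 1.17.1, numpy 2.4.6, matplotlib 3.10.9 and pandas 2.3.3 under Python 3.11.15.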

Additional observations from a re-analysis of the deposited data

Results flagged for a closer look

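In 7 genes and 1 share, the RANKL antibody went one way in WT mice and the other way in Cd40-/- mice. The intervals of both log2 ratios were off 0 in each. The 7 genes come from a set of genes picked by name and not from a screen of all genes. How many of all genes had such opposite intervals is not given, so this count has no background beside it. The difference between the 2 ratios was not tested, as each group had 1 library. In progenitor-like cells with cTEC genes, the log2 ratio of WT-RANKL Ab to WT-Control and that of Cd40-/- RANKL Ab to Cd40-/- Control were -0.96 and 0.46 for Jun, -1.08 and 0.50 for Junb, -0.47 and 0.61 for Ier2, and -1.23 and 0.41 for Zfp36, all immediate early genes. For Btg2, an antiproliferative immediate early gene, they were 0.73 and -0.24. They were -2.76 and 0.60 for the MHC class I gene H2-Q4, and 1.00 and -0.34 for Ly75, a receptor of cTECs. The share of these cells among cells with the progenitor genes had log2 ratios of 0.91 and -0.70. The WT-Control side of each value rests on 29 cells, most of them low on the range of Prss16 and Psmb11, and the Cd40-/- libraries shared 210 barcodes. For WT-RANKL Ab the AP-1 median was -0.91 over all cells, -0.31 under 40 per 10000 and -1.53 at 20 or more. That of the other immediate early genes was -0.48, 0.00058 and -0.88 in the same order. The part of the range or of the shared barcodes in the differences of the 7 genes was not tested.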

How the results depend on the processing

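With 1 library per group, no spread between samples could be measured and depth limited WT-Control most, with 300726 UMIs in 29 cells. Of 225 recomputed values of shares, main lists and gene counts, 195 stayed close to the value reported, 25 moved and 5 reversed. Of 786 further ones of single genes and other lists, 652 stayed close, 117 moved and 17 reversed. The cause of these changes was not tested unless the setting itself shows it. The log2 ratios of the share of kept cells to WT-Control (2.61, 2.54 and 3.78) were 3.30, 3.29 and 4.70 when Prss16 and Psmb11 had to reach 20 per 10000, 0.91, 1.41 and 0.70 among cells with the progenitor genes, and 0.84, 1.18 and 0.69 among these plus the cTEC-gated cells. With the latter denominators, Cd40-/- RANKL Ab turned from 1.23 above Cd40-/- Control to -0.70 and -0.48, and from 1.17 above WT-RANKL Ab to -0.21 and -0.15. After thinning to 2000 UMIs the last value was 0.71. Genes higher and lower by 1 or more in Cd40-/- RANKL Ab than in WT-Control were 750 and 200, and 313 and 96 with 10 CPM added, 85 and 36 with at least 100 UMIs, and 2408 and 1514 with at least 1 UMI. Among cells under 40 per 10000, 312 were higher. The AP-1 median of 0.26 was 0.77 as the mean over cells, 0.67 in cells of at most 20000 UMIs, 0.92 under 40 per 10000 and reversed to -0.0732 at 20 per 10000 or more. The interferon-stimulated median of -1.40 was -0.73 with at least 100 UMIs, and that of cTEC function of 0.88 was 0.20 under 40 per 10000. In that part of the range the other immediate early genes of WT-RANKL Ab reversed to 0.00058 and S1 in Cd40-/- Control to -0.0652. S0 in WT-RANKL Ab went from -0.49 to 0.20 and S1 from 0.34 to -0.0253 there. Single genes that reversed there were Ackr4 (0.15), Ccl25 (-0.16), Cd83 (-0.24), Dcn (0.18), Dll4 (-0.33), Fxyd2 (-0.36), Krt8 (-0.0230), Psmb11 (-0.44), Serpinf1 (0.23) and Tbata (-0.15). At 20 per 10000 or more Cxcl10 (-0.37), Jun (-0.0647), Junb (-0.29) and Psmb11 (-0.11) reversed, and in cells of at most 20000 UMIs Psmb11 (-0.0153). Genes lower by 1 or more than in cTEC-gated cells numbered 189 with at least 4 progenitor genes against at most 1. Genes above both classes by any size numbered 671 without WT-Control, since 3 libraries are then required. Cells with mitotic genes were 4.26% on all UMIs. The range under 40, the leaving out of shared barcodes or of WT-Control, the limit of 5000 UMIs on shares, the removal of cells with tuft genes and the count on all UMIs were chosen after seeing the data. No paired analysis was possible because each group has 1 library, and for the same reason none could be left out within a group.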

Other observations

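BMP signaling genes, a pathway of epithelial patterning, summed to 1461, 1046, 904 and 464 CPM along the 4 steps of Prss16 and Psmb11, and to 1124, 988, 990 and 740 CPM in the 4 libraries in the order used above. The median log2 ratio of the list to WT-Control was 0.60, 0.49 and 0.22, so that the sum was lower while the middle gene of those tested was higher. Within libraries the log2 ratio of the sum in cells at 40 per 10000 or more to that in cells under 40 was -0.55, -0.95, -0.64 and -1.10.

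Of the 1076 cells with Prss16 and Psmb11 at 10 per 10000 or more, low Ccl21a, Epcam and few T cell transcripts, 341 had UMIs of 0 of the 6 progenitor genes, 219 of 1, 140 of 2, 103 of 3, 87 of 4, 114 of 5 and 72 of 6. The number of cells was thus lower at 4 genes than at 3 and at 5. The share with 3 or more was 34.9% (32.1 to 37.9).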
